A study of Sus scrofa with 13 samples.

Results

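The transcripts of the pig mitochondrial genome make up 37 of the 28232 genes in the table of this series. They were chosen as the 13 mitochondrial protein genes, by symbol, and the 24 genes whose symbol field holds only a dot. All 37 matched the mitochondrial chromosome (MT) of the Sscrofa11.1 build in RefSeq, where the 24 are 2 rRNA genes and 22 tRNA genes. The study sequenced RNA of Sus scrofa embryos, pooled within each group, to compare stages of development and to set embryos made by in vitro fertilisation (IVF) beside embryos that developed in vivo. The groups were IVF 4-cell embryos (n = 3 libraries), IVF blastocysts (n = 3), in vivo blastocysts (n = 2), IVF hatched blastocysts (n = 3) and in vivo hatched blastocysts (n = 2). Blastocysts are embryos with a cavity full of fluid, and they hatch by leaving the zona pellucida, the coat of the egg. Breed, parents, embryo age, culture medium and pool size are not given in the sources used here, nor is it said if a group's libraries stem from separate animals or days. Origin in vitro or in vivo therefore cannot be told apart from these, and the p-values measure the spread between libraries, which may be technical.

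Mitochondrial DNA is a small circle, inherited from the egg, that is copied and transcribed inside the organelle. The polymerase POLRMT, with TFAM and TFB2M, reads both strands into long transcripts. The tRNAs lie between most other genes and are cut out by RNase P and ELAC2, which frees the messages and rRNAs. All messages but ND6 come from the transcript of 1 strand. In mammals MTPAP adds poly(A) tails, LRPPRC with SLIRP protects the messages, and PNPT1 takes part in decay. The messages encode 7 subunits of complex I (ND1 to ND6 and ND4L), cytochrome b of complex III (CYTB), 3 subunits of complex IV, which is cytochrome c oxidase (COX1 to COX3), and 2 of complex V, the ATP synthase (ATP6 and ATP8). All other subunits of the respiratory chain are nuclear.

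Each library held between 33259311 and 39273867 counts, and 34 of the 37 genes had a count in every library. The exceptions were the tRNA-Ala, tRNA-Cys and tRNA-Tyr genes, with 0 counts in some library, where 3 counts would be 0.0764 to 0.0902 CPM (counts scaled to a common library total). Counts covered RNA kept on oligo(dT) beads, so values of rRNA and tRNA genes describe what remained after selection for poly(A) and not the amount in the cell. The sources used here do not say whether counting used strand, so genes that overlap or face each other share uncertainty: ATP8 with ATP6, ND4L with ND4, and ND5 with ND6. Markers of epiblast, trophectoderm and hypoblast summed to 20300 to 38300 CPM in the 10 blastocyst libraries and 1140 to 1420 CPM in 4-cell libraries. Maternal messages of the egg summed to 55.1 to 179 CPM in the 10 blastocyst libraries and 16700 to 23200 CPM in 4-cell libraries, so both lists went with the labelled stages. In the 10 blastocyst libraries, markers of oviduct and uterine epithelium summed to 6.82 to 22.1 CPM, those of blood and immune cells to 4.76 to 16.7 CPM and those of sperm to at most 0.662 CPM. Markers of cumulus and granulosa cells summed higher, to 88.3 to 218 CPM in IVF blastocysts and 88.7 to 114 CPM in in vivo blastocysts. In hatched blastocysts they summed to 179 to 553 CPM, and FSHR and LHCGR were at 0 in all 10 libraries. Markers of stroma and vessel summed to 6.80 to 277 CPM in the 10 libraries. In RNA of whole embryos, fewer cells of a type and less RNA per cell cannot be told apart.

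Per length of gene, the messages stood far above the rRNAs and most tRNAs. The deposited FPKM values, which the authors scaled by gene length and library size, lay between 1383 and 16920 for ATP6 (MT:9120-9800) and between 1049 and 20460 for ND4 (MT:11359-12736). They lay between 6.89 and 29.2 FPKM for the 12S rRNA gene (MT:1246-2205) and between 12.3 and 156.5 FPKM for the 16S rRNA gene (MT:2274-3844). In each of the 12 libraries whose FPKM column could be used, 12 of the 13 messages had more FPKM than either rRNA. ND3 (MT:10653-10998), a complex I subunit, was the lowest message in all 12 libraries, at 15.3 to 122 FPKM.

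The order of the messages differed between groups. COX1 (MT:6511-8055), the catalytic core of complex IV, ranked first by FPKM in all 3 IVF 4-cell libraries, at 5798, 7137 and 6614 FPKM, and between rank 3 and rank 8 in the other 9 libraries. ATP6, which forms part of the proton channel of ATP synthase, ranked first in all 6 IVF blastocyst and hatched libraries. ND4, a membrane subunit of complex I, ranked first in both in vivo blastocyst libraries, at 13450 and 10490 FPKM. In in vivo hatched library 2, the one of that group with a usable FPKM column, ND4 had 20460 FPKM and ranked first. These ranks are a description, without a test.

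**Figure D1:**
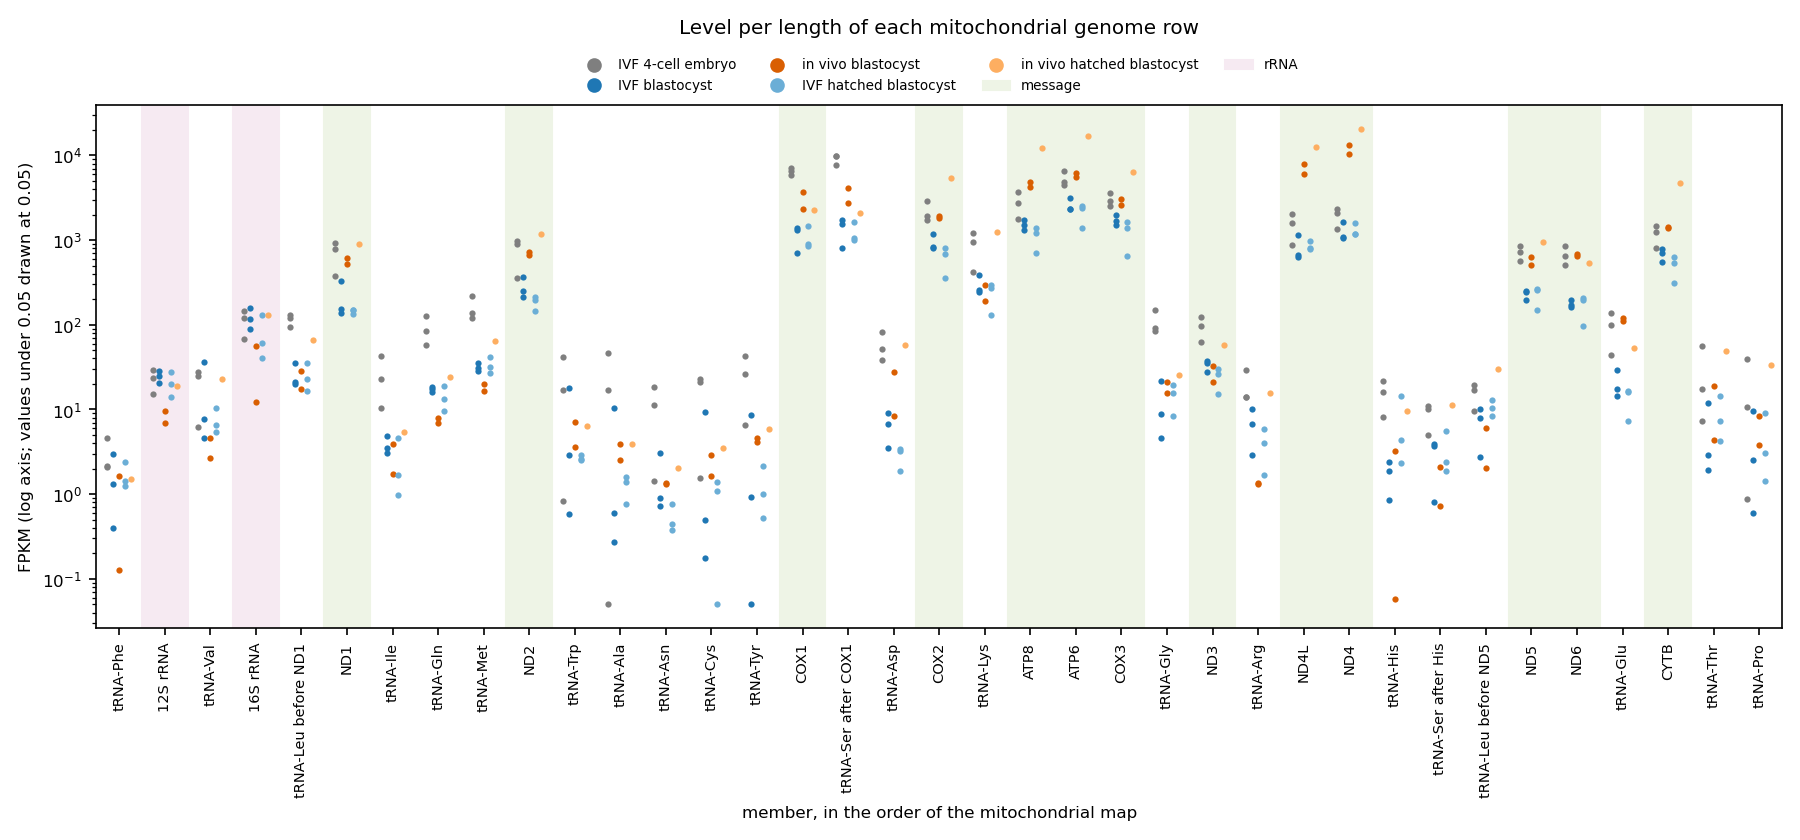
Deposited FPKM (log axis) of each of the 37 genes in the order of the mitochondrial map, with 1 point for each of 12 libraries, coloured by group; message and rRNA columns are shaded. ATP6 and ND4 reach 16920 and 20460 FPKM in an in vivo hatched library, ND3 lies at 15.3 to 122 FPKM, and the tRNA-Ser gene after COX1 lies at 0.923 to 1.47 times COX1 in each library.

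Messages took 95.9% to 99.3% of the counts of the 37 genes. IVF blastocysts had 1.07%, 0.883% and 0.957% of their library in the 13 messages, against 3.76% and 3.52% in in vivo blastocysts. The means were 0.971 ± 0.0955% and 3.64 ± 0.172% (SD), and all 3 IVF libraries lay below both in vivo libraries, 3.76-fold lower on average. IVF hatched blastocysts had 0.885%, 0.606% and 0.983%, against 1.49% in the unnumbered in vivo hatched library, whose count column carries no replicate number, and 6.85% in library 2. The IVF hatched libraries again lay below both in vivo libraries, of which library 2 stood far above the other. The share was 3.95-fold lower in IVF hatched blastocysts, a log2 difference of -1.98; leaving out in vivo hatched library 2 gave -0.88, and leaving out the unnumbered one gave -3.08. The exact two-sided permutation test gave p = 0.2 for both comparisons, the smallest p that 3 against 2 libraries allow, and p = 0.3 after adjustment over the 6 pairs of groups.

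In unhatched blastocysts the rRNA genes went the other way from the messages. IVF blastocysts had 0.0277%, 0.0168% and 0.0205% of their counts in the 2 rRNA genes, against 0.00264% and 0.00981% in in vivo blastocysts, so all IVF libraries were above both in vivo libraries (exact permutation p = 0.2, the smallest possible; adjusted p = 0.48). In hatched embryos the rRNA share was 0.0232%, 0.00783% and 0.0117% in IVF hatched blastocysts, against 0.0474% and 0.0228% in in vivo hatched blastocysts. There it was 2.55-fold lower in IVF embryos, as the messages were, with overlap (exact permutation p = 0.4). The ratio of message to rRNA counts was 38.7, 52.6 and 46.8 in IVF blastocysts, against 1425 and 358.6 in in vivo blastocysts. The ratio was 15.7-fold lower in IVF blastocysts, with no overlap (exact permutation p = 0.2, the smallest possible; adjusted p = 0.4). Its log2 difference was -3.97 with all libraries, -2.97 without in vivo blastocyst library 1 and -4.96 without library 2. In hatched embryos the groups overlapped: the ratio was 38.1, 77.4 and 83.6 in IVF hatched blastocysts, against 31.4 and 300.7 in in vivo hatched blastocysts. Without in vivo hatched library 2 the sign of that difference turned, with a log2 difference of 1.00 against -0.63 with all libraries.

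The tRNA genes took 0.0170%, 0.0139% and 0.00839% of the counts of IVF blastocysts, against 0.0227% and 0.0341% in in vivo blastocysts. They took 0.0110%, 0.00927% and 0.0147% in IVF hatched blastocysts, against 0.0159% and 0.0270% in in vivo hatched blastocysts. Both IVF groups lay below the in vivo libraries without overlap (exact permutation p = 0.2 each, the smallest possible; adjusted p = 0.3). The log2 difference between blastocysts was -1.15, and it was 0.18 over the 19 tRNA genes left when the 3 most counted were taken out. Messages per tRNA were 62.9, 63.7 and 114 in IVF blastocysts, against 165.5 and 103.2 in in vivo blastocysts, with overlap (exact permutation p = 0.4). They were 80.4, 65.4 and 66.8 in IVF hatched blastocysts, against 93.4 and 253.9 in in vivo hatched blastocysts, without overlap (exact permutation p = 0.2, adjusted p = 0.4). The log2 difference between hatched groups was -1.13, with -0.40 without in vivo hatched library 2 and -1.85 without the unnumbered one.

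**Figure D2:**
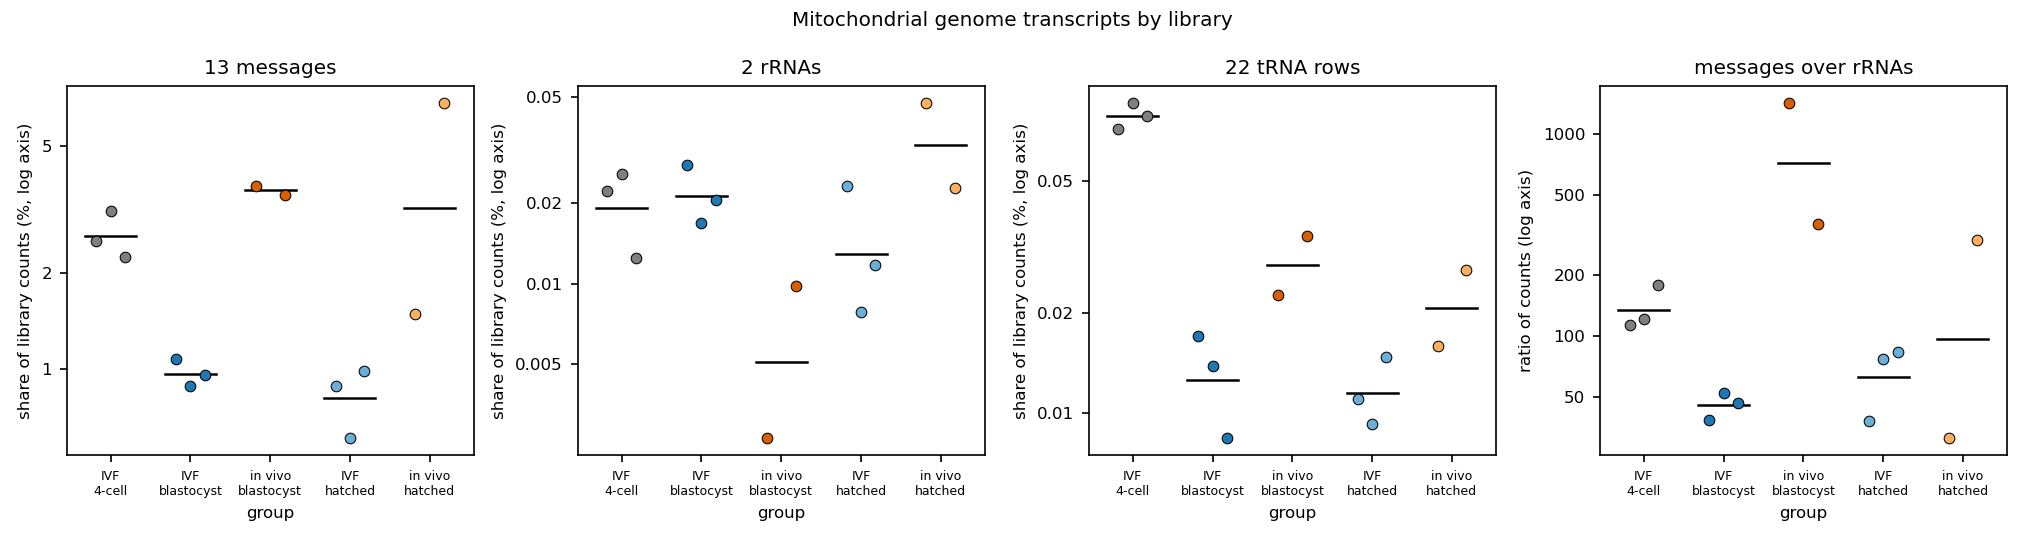
Share of library counts (log axes) in the 13 messages, 2 rRNAs and 22 tRNA genes, and the ratio of message to rRNA counts, with 1 point per library and a line at the geometric mean of each group. Message shares are 0.883% to 1.07% in IVF blastocysts against 3.52% to 3.76% in in vivo blastocysts, while the ratio to rRNA is 38.7 to 52.6 against 358.6 to 1425.

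Gene by gene, 7 of the 13 messages were lower in IVF blastocysts than in those from in vivo, and none was higher, where 4.74% of the 15528 genes tested were called lower and 6.09% higher. Called here means an adjusted p under 0.05 by edgeR's quasi-likelihood test over all genes. The 7 were ND1, ND2, ND4, ND4L, ND5, ND6 and COX1, which is 6 of the 7 complex I messages and 1 of the 6 others. The median log2 fold change of the 13 messages was -1.36, beside 0.05 for all genes tested.

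ND4 had 2271, 1464 and 1510 CPM in IVF blastocysts, against 18790 and 14650 CPM in in vivo blastocysts. ND4L (MT:11069-11365), read from the same bicistronic message, had 346, 188 and 203 CPM in IVF blastocysts, against 2361 and 1815 CPM in in vivo blastocysts. Neither gene's ranges came near each other, and both fell more than any other message: 9.86-fold for ND4 (log2 fold change -3.30 ± 0.55 (SE), adjusted p = 0.00589) and 8.77-fold for ND4L (-3.13 ± 0.50, adjusted p = 0.00496). The ratio of ND4L to ND4 counts stayed between 0.124 and 0.187 in all 13 libraries.

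ND6 (MT:14739-15266), the message from the opposite strand, had 106, 86.7 and 92.7 CPM in IVF blastocysts, against 343 and 364 CPM in in vivo blastocysts. It fell 3.80-fold (-1.92 ± 0.32, adjusted p = 0.00576). ND6 over the other 12 messages was 0.00997, 0.00992 and 0.00978 in IVF blastocysts, against 0.00921 and 0.0105 in in vivo blastocysts, and the groups overlapped (log2 difference 0.01, exact permutation p = 0.8). ND5 fell with a log2 fold change of -1.33 ± 0.30 (adjusted p = 0.0186), ND2 with -1.36 ± 0.35 (adjusted p = 0.0309) and ND1 with -1.49 ± 0.40 (adjusted p = 0.0365). ND3 was the exception in complex I, with 12.3, 12.9 and 9.67 CPM in IVF blastocysts, against 7.46 and 11.4 CPM in in vivo blastocysts; the ranges overlapped (0.29 ± 0.39, adjusted p = 0.687).

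COX1 had 2183, 2064 and 1103 CPM in IVF blastocysts, against 3642 and 5717 CPM in in vivo blastocysts, and fell with a log2 fold change of -1.40 ± 0.35 (adjusted p = 0.0271). The other 2 messages of complex IV did not pass the test: COX2 had a log2 fold change of -1.04 ± 0.45 (adjusted p = 0.163) and COX3 of -0.74 ± 0.42 (adjusted p = 0.275). Nor did CYTB (-1.09 ± 0.46, adjusted p = 0.155), ATP6 (-1.22 ± 0.47, adjusted p = 0.122) or ATP8 (-1.62 ± 0.50, adjusted p = 0.0604). ATP6 had 1594, 1628 and 2159 CPM in IVF blastocysts, against 4286 and 3875 CPM in in vivo blastocysts. For these 5 messages too, every IVF blastocyst library lay below both in vivo blastocyst libraries, so 12 of the 13 messages had ranges that did not meet, beside 43.9% of all genes tested.

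Of the rRNA and tRNA genes, 22 were tested, and 1 was higher and 2 were lower in IVF blastocysts, where 10.8% of all genes were called in either direction. The 12S rRNA, of the small mitochondrial ribosomal subunit, had 28.1, 24.5 and 19.8 CPM in IVF blastocysts, against 6.72 and 9.41 CPM in in vivo blastocysts. It rose 2.96-fold (1.56 ± 0.37, adjusted p = 0.0225). The 16S rRNA, of the large subunit, had 249, 143 and 185 CPM in IVF blastocysts, against 19.7 and 88.7 CPM in in vivo blastocysts, without overlap and without passing the test (1.86 ± 0.62, adjusted p = 0.0763). The tRNA genes that fell were tRNA-Glu (MT:15267-15335), 5.68-fold (-2.51 ± 0.56, adjusted p = 0.0187), and the tRNA-Ser gene that starts at MT:8059 (-1.36 ± 0.34, adjusted p = 0.0274).

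These calls depended on single libraries. Messages called numbered 6 without IVF blastocyst library 1, 3 without library 2, 4 without library 3, 3 without in vivo blastocyst library 1 and 5 without library 2; ND4, ND4L and ND6 kept their call in each case, none of the 13 was called with all 13 libraries in 1 fit, and 12 were called without the filter on low counts. The rRNA and tRNA genes called numbered 2 without IVF blastocyst library 1, 0 without library 2, 1 without library 3, 0 without in vivo blastocyst library 1 and 0 with all 13 libraries in 1 fit. Without in vivo blastocyst library 2 they numbered 3, with 16S among them.

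In hatched blastocysts 11 of the 13 messages were lower in the IVF embryos and none was higher, where 4.88% of all genes tested were called lower and 6.96% higher. The median log2 fold change of the 13 was -2.01, beside 0.04 for all genes. All 6 complex I messages other than ND3 fell, as did CYTB, COX2, COX3, ATP6 and ATP8. COX1 and ND3 did not pass the test, and these were the 2 messages whose ranges overlapped, where 46.6% of all genes tested had ranges that did not meet.

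ND4 again differed most, with 1641, 1650 and 2224 CPM in IVF hatched blastocysts, against 4245 CPM in the unnumbered in vivo hatched library and 28520 CPM in library 2. It fell 8.24-fold (-3.04 ± 0.54, adjusted p = 0.00569), and ND4L fell 8.10-fold (-3.02 ± 0.50, adjusted p = 0.00387). ATP8, a small accessory subunit of ATP synthase, had 287, 147 and 254 CPM in IVF hatched blastocysts, against 439 and 2541 CPM in in vivo hatched blastocysts, and fell 6.03-fold (-2.59 ± 0.51, adjusted p = 0.00895). CYTB (MT:15342-16481) had 721, 363 and 622 CPM in IVF hatched blastocysts, against 1149 and 5500 CPM in in vivo hatched blastocysts, and fell 5.44-fold (-2.44 ± 0.47, adjusted p = 0.00812). For ND4, ATP8 and CYTB, the 2 in vivo hatched libraries were farther apart than the unnumbered one was from the IVF libraries.

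ATP6 fell 4.50-fold (-2.17 ± 0.48, adjusted p = 0.0148). The log2 fold change was -2.34 ± 0.46 for COX2 (adjusted p = 0.0088), -2.01 ± 0.35 for ND2 (adjusted p = 0.00507) and -1.99 ± 0.40 for ND1 (adjusted p = 0.0103). Smaller falls were seen in COX3 (-1.66 ± 0.42, adjusted p = 0.0258), ND5 (-1.54 ± 0.30, adjusted p = 0.00825) and ND6 (-1.16 ± 0.32, adjusted p = 0.0357). COX1 had 1391, 1317 and 2286 CPM in IVF hatched blastocysts, against 1844 and 3550 CPM in in vivo hatched blastocysts (-0.61 ± 0.35, adjusted p = 0.283). ND3 had a log2 fold change of -0.74 ± 0.38 (adjusted p = 0.24).

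No rRNA passed the test between hatched groups, with a log2 fold change of -0.29 ± 0.35 for 12S (adjusted p = 0.647) and -1.35 ± 0.57 for 16S (adjusted p = 0.149), whose IVF libraries all lay below both in vivo libraries. Of the 20 tRNA genes tested, 2 were lower in IVF hatched blastocysts and none was higher, beside 11.8% of all genes called in either direction. Ranges did not meet for 17 of the 20, all lower in IVF hatched blastocysts, beside 46.6% of all genes tested. The median log2 fold change of the 20 was -1.46, beside 0.04 for all genes. The tRNA-Lys gene (MT:8891-8957), between COX2 and ATP8, had 20.2, 8.95 and 18.4 CPM in IVF hatched blastocysts, against 39.2 and 84.1 CPM in in vivo hatched blastocysts (-1.87 ± 0.39, adjusted p = 0.0108). The tRNA-Asp gene (MT:8135-8202), between the tRNA-Ser gene and COX2, had 0.140, 0.259 and 0.248 CPM in IVF hatched blastocysts, against 2.39 and 3.99 CPM in in vivo hatched blastocysts. It fell 13.6-fold (-3.77 ± 0.84, adjusted p = 0.0156), with few counts in each IVF hatched library. The tRNA genes called numbered 1 without IVF hatched library 1 or library 3, and 0 without in vivo hatched library 2 or with all 13 libraries in 1 fit.

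**Figure D3:**
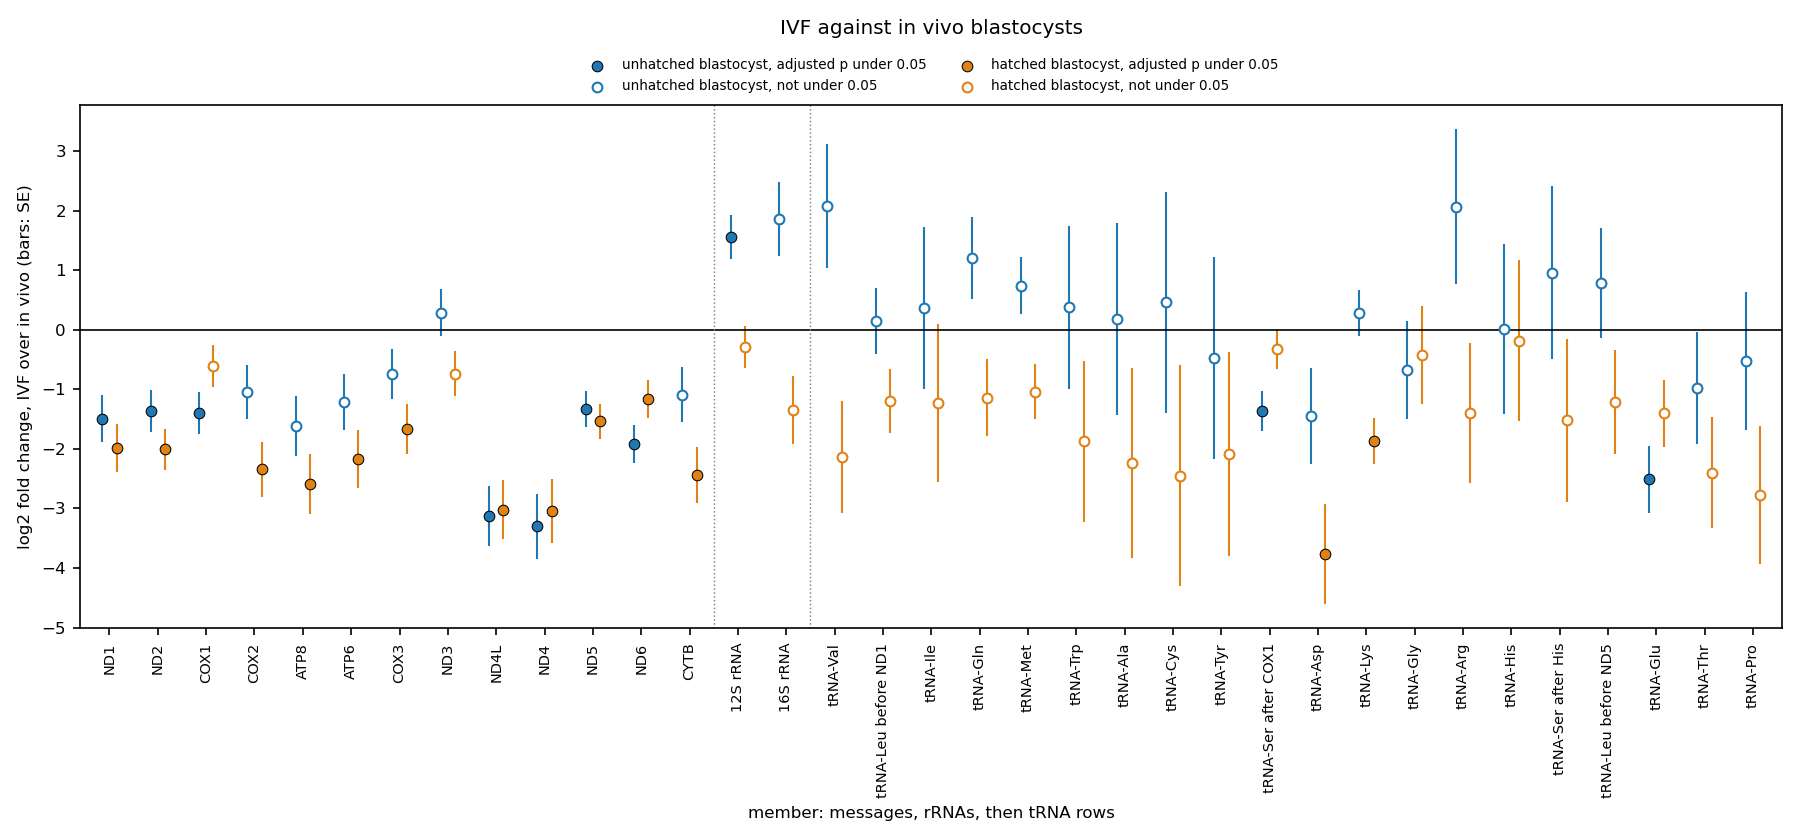
Log2 fold change of IVF over in vivo embryos (points, bars give SE) for each gene tested, in unhatched blastocysts and in hatched blastocysts, with filled points where the adjusted p was under 0.05. ND4 and ND4L have the lowest values of all messages at both stages (-3.30 and -3.13, then -3.04 and -3.02), while the 12S rRNA is at 1.56 in unhatched blastocysts and -0.29 in hatched ones.

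The hatched result rests largely on 1 library: without in vivo hatched library 2, ND4 and ND4L were the only messages called, as they were with all 13 libraries in 1 fit, whereas all 11 stayed without the unnumbered library. Without library 2 the log2 fold change was -1.19 for ND4, -1.49 for ND4L, -0.92 for ATP8 and -0.65 for ATP6. Library 2 over the unnumbered library was 6.72 for ND4, 5.78 for ATP8, 5.13 for ATP6, 4.79 for CYTB, 2.07 for ND6 and 1.92 for COX1 in CPM, but 0.561 for 12S and 0.474 for 16S. Thus every message was higher and both rRNAs were lower in library 2. Other lists moved with origin in hatched embryos. Stroma and vessel markers (10 of 10 in the table) summed to 6.80 to 13.9 CPM in IVF hatched and 32.4 to 277 CPM in in vivo hatched libraries, with COL1A1, LUM, VWF and CDH5 at 0 in the in vivo libraries. Most of that sum was PDGFRA, at 4.28 ± 0.63 CPM in IVF hatched and 121 ± 143 CPM in in vivo hatched libraries, and PECAM1, at 3.98 ± 2.08 and 30.3 ± 27.4 CPM (SD). Cumulus and granulosa markers (15 of 16 in the table) summed to 179 to 403 CPM in IVF hatched and 404 to 553 CPM in in vivo hatched libraries, with FSHR, LHCGR, AMH and FOXL2 among the 7 at 0 in the in vivo libraries. Of 11 markers of epiblast, trophectoderm and hypoblast tested, 2 were lower and 1 was higher in IVF hatched embryos. Of all genes tested, 4.88% were called lower and 6.96% higher. The median log2 fold change of the 11 was 0.08, beside 0.04 for all genes. The 2 lower were the hypoblast genes SOX17 (-4.36 ± 0.71, adjusted p = 0.0034) and GATA4 (-1.86 ± 0.35, adjusted p = 0.00756). Which cells expressed PDGFRA and PECAM1, and the part of these differences in the message result, were not tested.

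The make-up of the messages differed as well as their sum. ND4 was 21.2%, 16.6% and 15.8% of message counts in IVF blastocysts, against 49.98% and 41.7% in in vivo blastocysts. It was 18.6%, 27.2% and 22.6% in IVF hatched blastocysts, against 28.5% and 41.7% in in vivo hatched blastocysts. In both pairs the IVF libraries were lower, without overlap. COX1 took the larger part in IVF embryos on average, but its ranges overlapped between blastocysts: 20.4%, 23.4% and 11.5% in IVF blastocysts, against 9.69% and 16.3% in in vivo blastocysts.

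Counts of ND4 over COX1, a ratio chosen after its values were seen, were 1.04, 0.710 and 1.37 in IVF blastocysts, against 5.16 and 2.56 in in vivo blastocysts. They were 1.18, 1.25 and 0.973 in IVF hatched blastocysts, against 2.30 and 8.03 in in vivo hatched blastocysts. All 6 IVF libraries lay below all 4 in vivo libraries. Together ND4 and ND4L held 20.3 ± 3.55% of message counts in IVF blastocysts and 51.5 ± 6.68% in in vivo blastocysts (SD). Without them, the other 11 messages still took 0.810%, 0.717% and 0.786% of the library in IVF blastocysts, against 1.65% and 1.87% in in vivo blastocysts. The gap in these 11 was smaller than in all 13 and showed no overlap. These shares of ND4 and COX1 are a description, without a test.

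**Figure D4:**
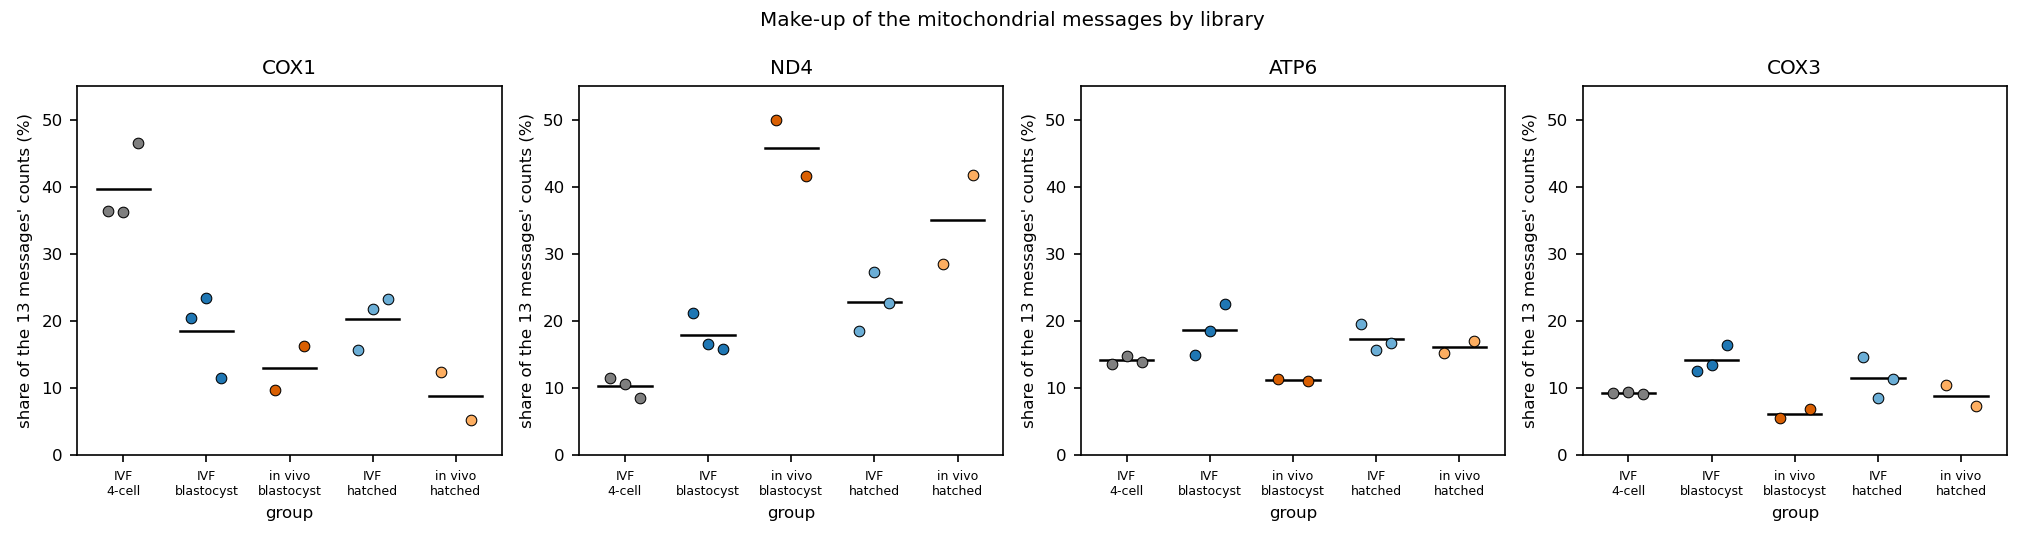
Share of COX1, ND4, ATP6 and COX3 among the counts of the 13 messages, with 1 point per library and a line at the mean of each group. ND4 holds 15.8% to 21.2% in IVF blastocysts against 41.7% to 49.98% in in vivo blastocysts, and COX1 holds 36.2% to 46.6% in IVF 4-cell embryos, above its share in any blastocyst library.

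Hatching in vivo went with higher rRNA genes and no called message. None of the 13 messages passed the test between in vivo hatched and in vivo blastocysts (2 had an unadjusted p under 0.05, and DESeq2 called 0), while 14.3% of all genes were called in either direction, 6.96% higher and 7.39% lower. The 12S rRNA had 32.4 and 18.2 CPM in in vivo hatched blastocysts, against 6.72 and 9.41 CPM in in vivo blastocysts, and rose 3.03-fold (1.60 ± 0.39, adjusted p = 0.0206). The 16S rRNA had 442 and 209 CPM in in vivo hatched blastocysts, against 19.7 and 88.7 CPM in in vivo blastocysts, and rose (2.59 ± 0.67, adjusted p = 0.0256). Both in vivo blastocyst libraries were below both hatched libraries for each rRNA. Among tRNA genes, tRNA-Lys (1.83 ± 0.44, adjusted p = 0.0188) and tRNA-Met (1.92 ± 0.53, adjusted p = 0.0325) rose. Of the 20 tRNA genes tested, 15 were higher and 2 lower after hatching with ranges that did not meet, where 53.5% of all genes tested had such ranges.

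The message share did not move one way on hatching in vivo, at 1.49% and 6.85% in in vivo hatched blastocysts, against 3.76% and 3.52% in in vivo blastocysts. One hatched library was below both blastocyst libraries and the other above them (log2 difference -0.19, exact permutation p = 1.0). The ratio of messages to rRNAs was 31.4 and 300.7 in in vivo hatched blastocysts, against 1425 and 358.6 in in vivo blastocysts. It was 7.36-fold lower after hatching without overlap (exact permutation p = 0.333, the smallest that 2 against 2 libraries allow; adjusted p = 0.48). The log2 difference was -2.88, with -1.25 without the unnumbered hatched library, -4.51 without hatched library 2, -1.88 without in vivo blastocyst library 1 and -3.87 without library 2.

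These calls too depended on single libraries. The count of rRNA and tRNA genes called was 0 without in vivo blastocyst library 1, 3 without library 2, 1 without the unnumbered hatched library, 2 without hatched library 2 and 0 with all 13 libraries in 1 fit. Without the unnumbered library, COX2, ATP8, ATP6 and CYTB were called higher in in vivo hatched blastocysts (log2 fold changes of 1.3 to 1.63). Without hatched library 2, ND4 and ND4L were called lower (-2.01 and -1.54), and without the filter on low counts 3 messages were called (COX1 and ND6 lower, CYTB higher).

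Hatching of IVF embryos went with no called member. None of the 35 tested had an unadjusted p under 0.05 in edgeR and DESeq2 called 0, where 0.0451% of all genes, 7 of 15528, were called. ND4 had 1641, 1650 and 2224 CPM in IVF hatched blastocysts, against 2271, 1464 and 1510 CPM in IVF blastocysts (0.10 ± 0.48). The 16S rRNA had 206, 64.8 and 97.9 CPM in IVF hatched blastocysts, against 249, 143 and 185 CPM in IVF blastocysts (-0.62 ± 0.52). Both pairs of ranges overlapped.

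The difference between the hatching changes of IVF and in vivo embryos was tested as an interaction. No member was called, where 4.71% of all genes were called in either direction, 2.79% with a positive and 1.93% with a negative difference. The closest were tRNA-Lys (log2 difference of changes -2.15 ± 0.56, adjusted p = 0.0507), 16S rRNA (-3.21 ± 0.83, adjusted p = 0.0515) and 12S rRNA (-1.85 ± 0.50, adjusted p = 0.0567). In all, 6 rRNA and tRNA genes and no message had an unadjusted p under 0.05, and DESeq2 called 4 of these classes: 12S, 16S, tRNA-Val and tRNA-Lys. Without the unnumbered in vivo hatched library, COX2, ATP8, ATP6 and CYTB were called, and without library 2 ND4 (2.11, opposite in sign to these 4) and 12S (-2.25) were called. The 16S rRNA was called without in vivo blastocyst library 2 (-4.52) or IVF hatched library 1 (-3.80). Without the filter on low counts, COX2, CYTB, 12S, 16S and tRNA-Lys were called.

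From the 4-cell stage to blastocysts of IVF embryos, message counts were a smaller part of the library. The share was 2.52%, 3.13% and 2.25% in 4-cell embryos, 1.07%, 0.883% and 0.957% in blastocysts and 0.885%, 0.606% and 0.983% in hatched blastocysts. Every 4-cell library lay above all 6 later ones, and the share was 2.70-fold lower in blastocysts and 3.23-fold lower in hatched blastocysts (exact permutation p = 0.1 each, the smallest that 3 against 3 libraries allow; adjusted p = 0.3). Between IVF blastocysts and 4-cell embryos 7 messages fell and none rose, and between IVF hatched blastocysts and 4-cell embryos 11 fell and none rose. Of all 16312 genes tested, 56.3% and 56.6% were called in either direction and 30.6% and 30.9% lower, with a median log2 fold change of -0.23 and -0.24. The median of the 13 messages was -1.01 in blastocysts and -1.39 in hatched blastocysts.

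COX1 fell furthest. It had 9163, 11310 and 10470 CPM in 4-cell embryos, 2183, 2064 and 1103 CPM in blastocysts and 1391, 1317 and 2286 CPM in hatched blastocysts. No 4-cell library came near the later ones, and the fall was 4.93-fold in blastocysts (-2.30 ± 0.39, adjusted p = 0.0014) and 5.17-fold in hatched blastocysts (-2.37 ± 0.39, adjusted p = 0.00122). ND6 had 349, 461 and 272 CPM in 4-cell embryos, 106, 86.7 and 92.7 CPM in blastocysts and 110.0, 52.3 and 106 CPM in hatched blastocysts. It fell 3.18-fold in blastocysts (-1.67 ± 0.35, adjusted p = 0.0035) and 3.32-fold in hatched blastocysts (-1.73 ± 0.35, adjusted p = 0.00296). The other messages called in both comparisons were ND1, ND2, ND3, ND5 and COX2, and ATP6, ATP8, COX3 and CYTB were called in hatched but not in unhatched blastocysts. The test of hatched against unhatched IVF blastocysts called none of these 4. ND2 was the only called message whose ranges overlapped, in blastocysts against 4-cell embryos. Ranges did not meet for 10 of the 13 messages in blastocysts and 11 in hatched blastocysts, beside 65.8% and 66.0% of all genes tested.

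ND4 was the message nearest to its 4-cell level. It had 2908, 3309 and 1921 CPM in 4-cell embryos, 2271, 1464 and 1510 CPM in blastocysts and 1641, 1650 and 2224 CPM in hatched blastocysts, and the ranges overlapped (-0.37 ± 0.31, adjusted p = 0.333, then -0.26 ± 0.31, adjusted p = 0.499). ND4L also did not pass the test (-0.61 ± 0.36, adjusted p = 0.176, then -0.50 ± 0.36, adjusted p = 0.258). COX1 held 36.3%, 36.2% and 46.6% of message counts in 4-cell embryos, 20.4%, 23.4% and 11.5% in blastocysts and 15.7%, 21.7% and 23.3% in hatched blastocysts. ND4 held 11.5%, 10.6% and 8.54% in 4-cell embryos, 21.2%, 16.6% and 15.8% in blastocysts and 18.6%, 27.2% and 22.6% in hatched blastocysts. The 4-cell libraries were apart from all later ones in both shares, high in COX1 and low in ND4.

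After the 4-cell stage the tRNA genes took a smaller share, and the rRNA genes did not pass the test. The tRNA share was 0.0719%, 0.0860% and 0.0783% in 4-cell embryos, 0.0170%, 0.0139% and 0.00839% in blastocysts and 0.0110%, 0.00927% and 0.0147% in hatched blastocysts. It was 6.25-fold lower in blastocysts and 6.86-fold lower in hatched blastocysts, with no overlap (exact permutation p = 0.1 each, adjusted p = 0.3). The tRNA-Ser gene at MT:8059 held 78.8% to 90.5% of tRNA counts in 4-cell embryos. The 19 tRNA genes outside the 3 most counted summed to 79.8, 45.3 and 42.0 CPM in 4-cell embryos. They summed to 18.5, 7.98 and 8.49 CPM in blastocysts and 12.01, 10.5 and 9.58 CPM in hatched blastocysts, again without overlap. In each comparison 9 of 20 tRNA genes tested were called lower and none higher, beside 30.6% and 30.9% of all genes called lower. Those called in both were tRNA-Gln, tRNA-Met, tRNA-Asp, tRNA-Lys, tRNA-Gly, tRNA-Glu, the tRNA-Leu gene at MT:3845 and the tRNA-Ser gene at MT:8059. The 12S rRNA had a log2 fold change of 0.40 ± 0.36 in blastocysts and 0.16 ± 0.36 in hatched blastocysts, and 16S of 0.38 ± 0.45 and -0.23 ± 0.45, with overlapping ranges. Messages per rRNA were 113.4, 122.3 and 179.9 in 4-cell embryos, 38.7, 52.6 and 46.8 in blastocysts and 38.1, 77.4 and 83.6 in hatched blastocysts, so that all 4-cell libraries were higher (exact permutation p = 0.1 each, adjusted p = 0.3). Messages per tRNA were 35.1, 36.4 and 28.7 in 4-cell embryos, 62.9, 63.7 and 114 in blastocysts and 80.4, 65.4 and 66.8 in hatched blastocysts, so that all 4-cell libraries were lower (exact permutation p = 0.1 each, adjusted p = 0.3). With each gene weighted alike, the sign of this difference turned in hatched blastocysts against 4-cell embryos. Over the 19 less counted tRNA genes the ranges overlapped. There the ratio was 316.3, 690.2 and 535.2 in 4-cell embryos, 578.3, 1107 and 1127 in blastocysts and 736.8, 578.6 and 1026 in hatched blastocysts.

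**Figure D5:**
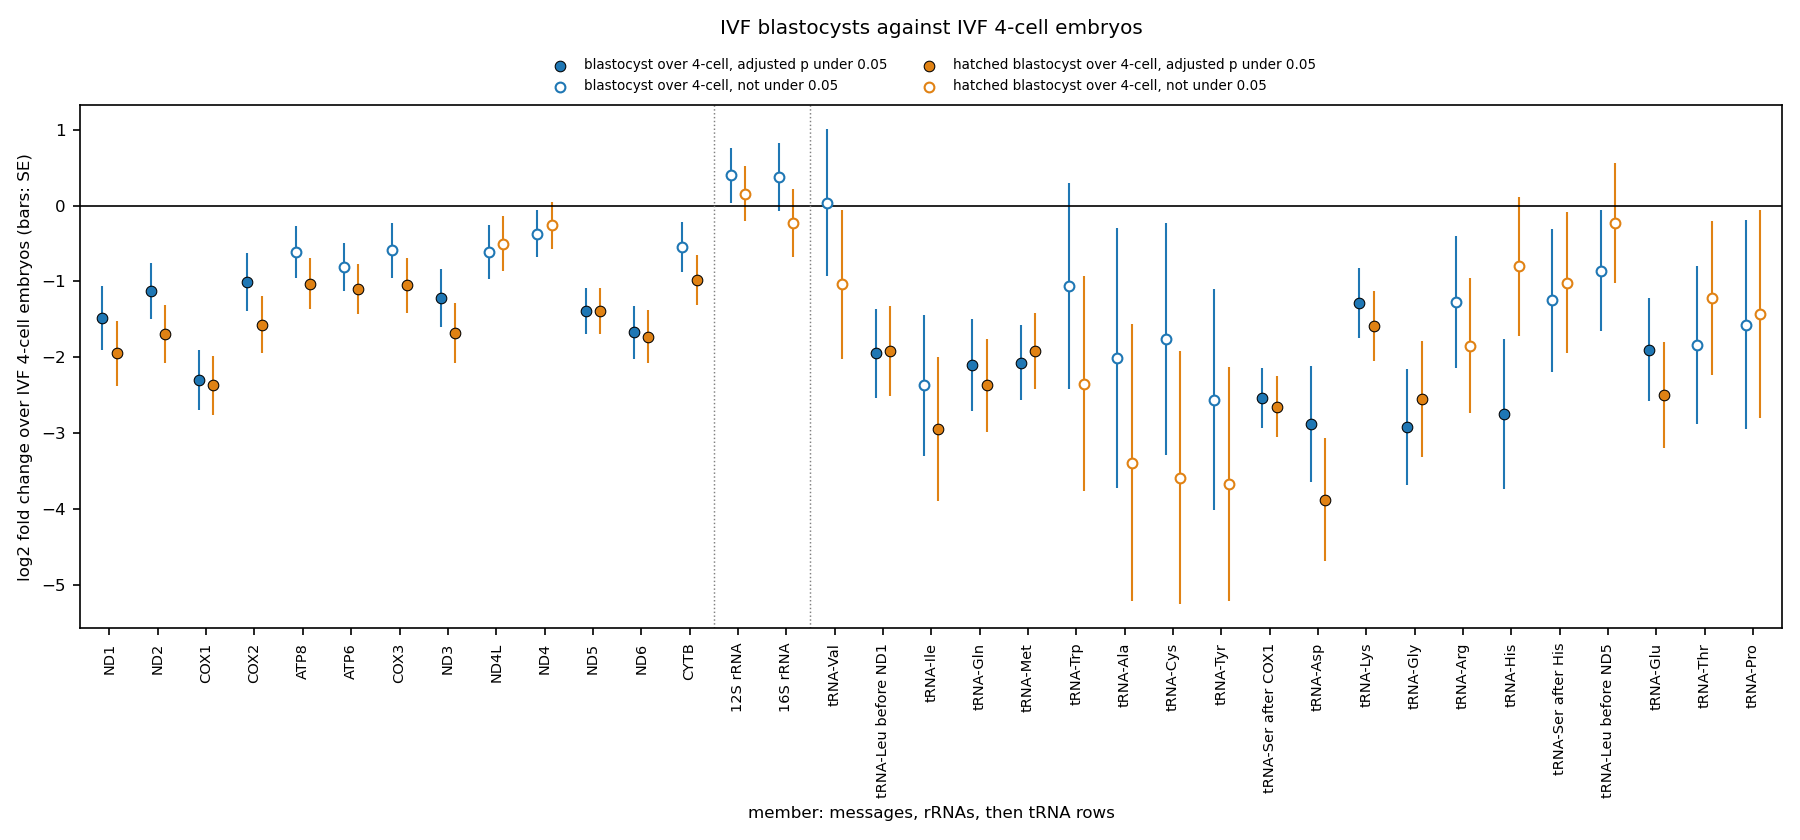
Log2 fold change of IVF blastocysts and of IVF hatched blastocysts over IVF 4-cell embryos (points, bars give SE) for each gene tested, with filled points where the adjusted p was under 0.05. COX1 is the lowest message at -2.30 and -2.37, ND4 is the highest at -0.37 and -0.26, and the 12S rRNA is at 0.40 and 0.16.

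Leaving out 4-cell library 2, blastocyst library 2 or blastocyst library 3 left 3 messages called in blastocysts: COX1, ND5 and ND6. In hatched blastocysts 7 messages stayed called without 4-cell library 2, hatched library 2 or hatched library 3, and with all 13 libraries in 1 fit. The tRNA genes called in blastocysts numbered 5 without blastocyst library 1, 2 without library 2 and 3 without library 3.

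A single tRNA gene held most tRNA counts. The tRNA-Ser gene at MT:8059-8129 starts 3 bases after the end of COX1 and took 53.6% to 90.5% of all tRNA counts, and with tRNA-Lys and tRNA-Glu 79.1% to 96.7%. It had 123, 112 and 57.8 CPM in IVF blastocysts, against 199 and 300.5 CPM in in vivo blastocysts. Against COX1 it varied little, at 4.24% to 6.77% of COX1 counts over the 13 libraries, and at 0.923 to 1.47 times its level in FPKM over 12 libraries. By stage, the ratio to COX1 counts was 6.45 ± 0.298% in IVF 4-cell embryos, 5.44 ± 0.209% in IVF blastocysts and 5.40 ± 0.209% in IVF hatched blastocysts (SD). Free tRNA and fragments that run on from COX1 cannot be told apart in counts per gene. The 19 tRNA genes outside these 3 summed to 12.01, 10.5 and 9.58 CPM in IVF hatched blastocysts, against 33.4 and 31.1 CPM in in vivo hatched blastocysts, without overlap. They summed to 18.5, 7.98 and 8.49 CPM in IVF blastocysts, against 7.57 and 11.97 CPM in in vivo blastocysts, with overlap.

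A list of mitochondrial transcription and the nucleoid, the DNA with its proteins, held 19 nuclear genes that were tested, some for copying the DNA. Of all genes, 4.74% were called lower and 6.09% higher in IVF blastocysts. Of these 19, 2 were lower and none was higher (median log2 fold change -0.15). These were POLRMT (-0.85 ± 0.23, adjusted p = 0.0368) and TFAM (-0.90 ± 0.26, adjusted p = 0.0441). POLRMT had 39.7, 46.5 and 43.3 CPM in IVF blastocysts, against 63.8 and 89.98 CPM in in vivo blastocysts. TFAM had 142, 146 and 154 CPM in IVF blastocysts, against 314.5 and 219.6 CPM in in vivo blastocysts. Neither gene's ranges overlapped, where 43.9% of all genes tested had ranges that did not meet. POLRMT was not called when any 1 of the 5 blastocyst libraries was left out, nor TFAM when any but in vivo library 2 was. In hatched embryos 1 of the 19 was lower and none was higher, where 4.88% of all genes were called lower and 6.96% higher. It was POLRMT (-0.97 ± 0.23, adjusted p = 0.0198), and TFAM did not pass the test (-0.75 ± 0.26, adjusted p = 0.0797). There POLRMT was not called when any 1 of the IVF hatched libraries, or in vivo hatched library 2, was left out.

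The core factors of message stability were not called between origins. LRPPRC had 131, 166 and 198 CPM in IVF blastocysts, against 134 and 226.5 CPM in in vivo blastocysts (-0.14 ± 0.33, adjusted p = 0.841). SLIRP (-0.48 ± 0.38, adjusted p = 0.453), MTPAP (-0.47 ± 0.22, adjusted p = 0.189) and PNPT1 (-0.97 ± 0.33, adjusted p = 0.0788) did not pass the test either. In hatched embryos the values were -0.50 ± 0.33 for LRPPRC, -0.22 ± 0.39 for SLIRP, -0.31 ± 0.22 for MTPAP and -0.36 ± 0.33 for PNPT1 (adjusted p = 0.355, 0.766, 0.388 and 0.526). Of the 20 genes listed for stability and decay, 1 was higher and 2 were lower in IVF blastocysts (PTCD3 and REXO2 fell, FASTK rose), where 10.8% of all genes were called in either direction, and 3 were lower in IVF hatched blastocysts (TACO1, PTCD3 and GRSF1), where 4.88% of all genes were called lower and 6.96% higher. Of 19 genes of RNA processing, 4 were lower in IVF blastocysts, beside 4.74% of all genes, among them the rRNA methyltransferases MRM2 (-1.03 ± 0.23, adjusted p = 0.0184) and MRM3 (-0.92 ± 0.21, adjusted p = 0.0212). In IVF hatched blastocysts 2 of the 19 fell, ELAC2 (-1.64 ± 0.23, adjusted p = 0.00169) and the methyltransferase NSUN2 (-1.37 ± 0.24, adjusted p = 0.00511), and HSD17B10 of RNase P rose (0.84 ± 0.24, adjusted p = 0.0443).

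The nuclear partners of the mitochondrial messages mostly did not pass the test between origins, where 10.8% of all genes were called in either direction in blastocysts and 11.8% in hatched blastocysts. Of 37 nuclear subunits of complex I, 3 were lower in IVF blastocysts (NDUFB11 and NDUFA9 among them; median -0.32) and none was called between hatched groups (median 0.20). Of 5 tested of complex IV, none was called in blastocysts and 1 was higher in IVF hatched blastocysts (COX7C). Of 15 of complex V, 2 were higher in IVF blastocysts (ATP5B and ATP5G2) and 1 in IVF hatched blastocysts (ATP5E). Neither of 2 tested of complex III was called. Complex II, which has no mitochondrial subunit, had SDHA (-0.95 ± 0.18, adjusted p = 0.0106) and SDHB (-0.99 ± 0.22, adjusted p = 0.0173) lower in IVF blastocysts, of 4 tested, and neither was called without in vivo blastocyst library 1. Of 18 nuclear markers of mitochondrial content, none was called in blastocysts (median -0.12), and TIMM44 and OPA1 were lower in IVF hatched blastocysts. Of 15 regulators of biogenesis, 3 were lower in IVF blastocysts (SIRT3, ESRRB and PPARGC1B) and 1 higher: PPARGC1A had 1.91 ± 0.327 CPM in IVF blastocysts (SD) and 0 counts in both in vivo blastocyst libraries, at least 24.2-fold higher against a floor of 3 counts per library. In hatched embryos NRF1 was lower (-1.21 ± 0.29, adjusted p = 0.0218).

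Over the stages of IVF embryos the nuclear subunits were mostly higher after the 4-cell stage, where the messages were lower. In blastocysts against 4-cell embryos, 32 of 37 nuclear subunits of complex I were higher and 1 was lower (median 3.73), and all 15 of complex V were higher (median 3.76). In hatched blastocysts against 4-cell embryos the counts were 32 and 1 for complex I (median 3.67), and 14 higher and none lower for complex V (median 3.64). Of 18 content markers, 15 were higher and 1 was lower in each comparison (medians 2.68 and 2.66). Here 25.7% of all genes were called higher in each comparison. LRPPRC rose in both (1.66 ± 0.31, adjusted p = 0.00218, and 1.70 ± 0.31, adjusted p = 0.00193), whereas POLRMT and TFAM were not called in either.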

How the data were processed

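Per the labels' protocols, TRIzol extracts were enriched for poly(A) with oligo(dT) beads, and libraries were made with an NEBNext Ultra kit. The authors deposited 1 table on Sscrofa11.1 with read counts (whole numbers, not normalised) and FPKM (counts scaled by the authors for gene length and library size) for each of 13 libraries. RSEM, StringTie 1.3.1, HISAT2, Bowtie2 and fastp 0.18.0 appear, per the submitters' processing notes, without their roles. How reads that match several genes were counted, nuclear copies of mitochondrial DNA among them, is not given in the sources used here. Of 39 value columns, 14 were not used: 13 of TPM, and the FPKM column of the in vivo hatched library whose count column has no number. Of the 28232 genes, 28208 matched RefSeq by gene number, and the mitochondrial rows with no number matched by start and end. Counting noise alone did not account for how libraries of 1 group differed (per degree of freedom, chi-square was at least 78.3), and each was kept.

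Differences were tested with edgeR 4.0.16 in R 4.3.3 (quasi-likelihood test, TMM factors, filterByExpr by group, Benjamini-Hochberg adjustment over all genes), in 1 fit of the 10 blastocyst libraries (15528 genes) and 1 of the 9 IVF libraries (16312 genes). Of the 22 tRNA genes, tRNA-Phe and tRNA-Asn did not pass the filter. Folds include TMM; CPM values and shares use raw totals. After ±, values are SD between libraries or, for a log2 fold change, SE. Summed shares and ratios were tested with exact two-sided permutation over libraries (scipy 1.17.1), adjusted over the 6 pairs of groups. Alternatives were DESeq2 1.42.0, other scalings and filters, each library left out, a replicate block and 1 fit of all libraries. The mitochondrial genes and 10 lists of nuclear genes and 7 of cell type markers were chosen with earlier results of these data known. From each list up to 4 called members with the smallest p could be named, and TFAM, POLRMT, LRPPRC, SLIRP, MTPAP and PNPT1 in any case. 1 called gene is not reported here by name. Floors cover counting error only.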

Additional observations from a re-analysis of the deposited data

Results flagged for a closer look

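No mitochondrial gene met the rules used here. Outside the lists of cell type markers, 5 nuclear genes of the lists did. Each did so because its hatching change differed between IVF and in vivo embryos in the edgeR interaction test, which called 4.71% of all genes. They were 2 of 19 genes of RNA processing, 1 of 15 regulators of biogenesis, 1 of 18 content markers and 1 of 4 of complex II. It called none of 19 genes of transcription and the nucleoid or 20 of stability and decay. Nor did it call any of 37 nuclear subunits of complex I, 2 of complex III, 5 of complex IV or 15 of complex V. Among the cell type markers, that test also called 1 of 7 cumulus and granulosa genes tested, with a negative difference. It called 2 of 11 epiblast, trophectoderm and hypoblast genes tested, also with a negative difference. These markers are not described further here. ELAC2, the enzyme that trims the tail of mitochondrial tRNAs, had a difference of hatching changes of -2.05 on the log2 scale (adjusted p = 0.00963). Its level was 69.4 ± 8.49 CPM in IVF hatched and 68.4 ± 8.03 CPM in IVF blastocysts, and 230.0 ± 90.3 CPM in in vivo hatched and 50.6 ± 9.06 CPM in in vivo blastocysts. NSUN2, an RNA methyltransferase, had -1.34 (adjusted p = 0.0491), and TOMM40, the channel of protein import, had -1.18 (adjusted p = 0.0363). SDHB of complex II had 1.38 (adjusted p = 0.0323), with 404 ± 39.2 CPM in in vivo hatched and 779 ± 97.1 CPM in in vivo blastocysts. PPARGC1A, a coactivator of mitochondrial biogenesis, had -8.14 (adjusted p = 0.0175); both in vivo blastocyst libraries held 0 counts, so this fitted value depends on the prior count and is no bound, and the in vivo hatched libraries were at least 25.1-fold higher against the floor of 3 counts per library.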

How the results depend on the processing

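With DESeq2-type size factors in edgeR or scaling by nuclear genes, counts of messages called moved in no comparison by over 1.5 times, and no single gene called in the reported fits changed sign under any alternative. With all 13 libraries in 1 fit, messages called between IVF and in vivo embryos numbered 0 in blastocysts and 2 in hatched blastocysts, and rRNA and tRNA genes called numbered 0 in both and 0 on hatching in vivo; 7 messages were called between IVF hatched blastocysts and 4-cell embryos. That fit called 7 of 18515 genes between IVF and in vivo blastocysts, where the reported fit called 1681 of 15528. Without the filter on low counts the messages called numbered 12 between IVF and in vivo blastocysts, 3 on hatching in vivo and 2 for the difference of hatching changes, and the rRNA and tRNA genes 3 for that difference. DESeq2 called 8 rRNA and tRNA genes on hatching in vivo and 4 for the difference, which numbered 1 with DESeq2-type factors in edgeR and 1 with scaling by nuclear genes. The cause was not tested.

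Same-numbered libraries did not deviate together (correlations of -0.13 to 0.03), and the numbers were not used as pairs in the reported fits. Deviations from means of 2 or 3 libraries cannot exclude a shared batch or day. With the replicate block 11 messages were called between IVF and in vivo blastocysts, against 7 in the reported fit. Between IVF blastocysts and 4-cell embryos it called 4 rRNA and tRNA genes, against 9. The block also changed calls of single genes.

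With 1 library left out, messages called numbered 3 to 6 between IVF and in vivo blastocysts, 2 to 11 between hatched groups, 0 to 4 on hatching in vivo, 0 to 4 for the difference of hatching changes, 3 to 7 between IVF blastocysts and 4-cell embryos and 7 to 11 between IVF hatched blastocysts and 4-cell embryos. For rRNA and tRNA genes the ranges were 0 to 3, 0 to 2, 0 to 3, 0 to 1, 2 to 8 and 6 to 8 in the same order, and for hatching of IVF embryos both were 0 to 0.

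An alternative added after seeing the data used only the 19 less counted tRNA genes. There the log2 difference of the tRNA share was 0.18 between IVF and in vivo blastocysts, against -1.15 over all tRNA genes. On hatching in vivo it was 1.76, against -0.42, and messages over tRNAs gave -1.95, against 0.24. With each gene weighted alike, messages over tRNAs gave -0.77 on hatching in vivo, against 0.24. Between IVF hatched blastocysts and 4-cell embryos they gave -0.18, against 1.09. The sign turned in each of these. With 1 library left out, the log2 differences that changed sign ranged from -0.08 to 0.10 (ND6 over the other messages) between IVF and in vivo blastocysts. Between hatched groups they ranged from -2.26 to 1.00 (messages over rRNAs) and -0.29 to 0.09 (ND4L over ND4). On hatching in vivo they ranged from -1.29 to 0.91 (message share) and -0.48 to 0.96 (messages over tRNAs). On hatching of IVF embryos they ranged from -0.42 to 0.09 (tRNA share), -0.27 to 0.16 (messages over tRNAs), -0.02 to 0.24 (ND6 over the other messages) and -0.02 to 0.10 (ND4L over ND4), and for the rRNA share between IVF blastocysts and 4-cell embryos from -0.17 to 0.35.

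Groups of 2 and 3 libraries limit the precision more than depth does for messages, and 18 tRNA genes were under 1 CPM in some library.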
